A study of Mus musculus with 21 samples.

Results

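The interferon-stimulated and antigen processing genes described here are a list of 43 genes chosen by gene symbol: interferon receptors, the transcription factors that act below them, the antiviral genes they switch on, and the genes that load peptides onto class I molecules of the major histocompatibility complex. Of these, 41 were measured among 18193 genes on the arrays of NMuMG cells and 40 among 12393 genes on the arrays of NM18 cells. The only probe set that names Isg15 also names another gene, Ifi44 was named on no probe set, and Ddx58 had none on the NM18 arrays, so these have no value there. Where a gene had several probe sets, the brightest over all arrays of a cell line stood for it.

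NMuMG is a line of mouse mammary gland epithelial cells, and NM18 is the name the labels give to the second mouse cell line. NMuMG cells were kept for 2 h in medium with 200 µM 4-thiouridine (4sU), without (control) or with 5 ng/ml TGF-b1, so all of them had received 4sU. 4sU is a uridine analogue that cells build into new RNA. From each culture condition, total RNA and RNA enriched for 4sU by mercury chromatography (newly made RNA) were put on arrays, 3 biological replicates of each. NM18 cells received 25 nM siRNA for 48 h in 3 groups, again of 3 biological replicates each: a control siRNA (ns-siRNA), the control siRNA with 5 ng/ml TGF-b1 for the last 40 h, and siRNA against FoxQ1 with the same TGF-b1. There was no group with FoxQ1 siRNA alone and none without siRNA, so an effect of transfection itself cannot be told apart. FoxQ1 is a forkhead transcription factor. TGF-b1 is a cytokine known to drive mammary epithelial cells towards a mesenchymal state.

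Type I interferons act through the receptor chains Ifnar1 and Ifnar2, and interferon gamma through Ifngr1 and Ifngr2. Janus kinases on these receptors start a signal that ends at short DNA elements near the target genes, the interferon-stimulated response element and the gamma-activated site. The induced genes block viral RNA and protein synthesis, degrade RNA, or raise peptide presentation on class I molecules. Epithelial cells also express many of them without added interferon.

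Values are log2 expression levels as deposited, and each probe set has its own brightness, so levels of the list's genes are not ranked against each other. A change is a difference of group means on the log2 scale with its standard error, from limma fitted over all genes of a cell line, and a gene was called where the adjusted p (Benjamini-Hochberg over all genes) was under 0.05. The targeted gene followed the labels: Foxq1 stood at 7.91, 8.49 and 8.38 with ns-siRNA, at 9.08, 9.04 and 9.33 with ns-siRNA and TGF-b1 and at 7.57, 8.09 and 7.97 with FoxQ1 siRNA and TGF-b1. Foxq1 fell by 1.27 ± 0.16 (adjusted p = 0.000291) with its siRNA and rose by 0.89 ± 0.16 (adjusted p = 0.00164) with TGF-b1. One array of ns-siRNA without TGF-b1, replicate 1, carries a free-text description naming TGF-b1, against its title and treatment label, which were followed. By array brightness alone, a rough guide since it differs between probe sets, 6 of 8 epithelial markers in NMuMG and 4 of 8 in NM18 lay above the median gene, against 0 of 11 and 0 of 10 leukocyte markers and 1 of 7 and 0 of 7 fibroblast markers. In these bulk samples, fewer cells of a type and less RNA per cell cannot be told apart.

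Few genes of the list were called with TGF-b1 for 2 h. In simulated data for newly made RNA, with fewer genes changed than were called in the data and independent arrays, 31.3% of changes of 0.5 were called. This share is only a rough guide, but a gene not called may still have changed. In newly made RNA, 1 gene rose (Oasl2) and 3 fell (Irf2, Trim25, Ifngr1), together 9.76% of those measured, where 6.13% of all genes were called, 3.35% as higher and 2.79% as lower. In total RNA only Oasl2 passed, where 2.48% of all genes were called, 1.46% as higher and 1.02% as lower. The median change of the list was -0.11 in the newly made fraction and -0.05 in total RNA, against -0.01 and -0.03 over all genes. For 0 of the 41 was the difference of the TGF-b1 effects between newly made and total RNA called, where limma called 0.066% of all genes. One member, Tap2, had an unadjusted p under 0.05 (1 of 41), with a difference of the effects of -0.39 ± 0.17.

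Same-numbered NMuMG arrays deviated together among newly made RNA and, separately, among total RNA. With the replicate number as a block, 7 genes were called in newly made RNA (8.81% of all genes) and with a separate block for each kind of RNA 9 (12.8% of all genes), with Ifit2, Ifi35 and Igtp lower in both. The separate blocks also called Ifit3 lower (adjusted p = 0.0341) and Isg20 higher, by 0.42 (adjusted p = 0.0123, and 0.119 in the main fit). In total RNA both blocks called 3, Oasl2, Trim25 and Ifit2 (3.85% and 5.63% of all genes).

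In NM18 cells TGF-b1 for 40 h raised 6 genes (Irgm1, B2m, Tapbp, Oasl2, Ifnar1, Parp14) and lowered 5 (Ifit2, Ifit3, Ifngr2, Ifngr1, Trim25). That is 27.5% of those measured, beside 30.7% of all genes, 13.2% higher and 17.5% lower, so the share called was near that of all genes. Their median change was -0.02, against 0.00 over all genes. Without ns-siRNA replicate 1, the array with that description, the count was again 6 higher and 5 lower. With the replicate number as a block, 14 genes were called, 7 higher and 7 lower, beside 4785 of all genes against 3807 in the main fit. The block added Ifnar2 as higher and Usp18 and Bst2 as lower.

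FoxQ1 siRNA in TGF-b1-treated NM18 cells raised 7 genes (Igtp, Ifnar1, Eif2ak2, Ifih1, Ifi35, Ifngr2, Irf9) and lowered 1 (Samhd1). These were 20% of the genes measured, beside 19.6% of all genes, 11.3% higher and 8.28% lower. With quantile normalization 9 were higher and 3 lower, and with each array centred on its median 8 and 2. Over all 12393 genes these settings called 2664 and 2453, against 2425 in the main fit. Same-numbered NM18 arrays deviated together, and with the replicate number as a block 15 genes were called, 10 higher and 5 lower, beside 28.4% of all genes, 16.3% higher and 12.1% lower. The blocked fit added Tapbp (adjusted p = 0.0167), Ifit1 (0.0121) and Irf3 (0.0193) as higher. It added Oasl2 (adjusted p = 0.00961), Isg20 (0.0101), Ifngr1 (0.0346) and Ifit2 (0.0437) as lower. Set against ns-siRNA without TGF-b1, the cells with FoxQ1 siRNA and TGF-b1 had 13 genes higher and 6 lower, beside 37.9% of all genes, 19.3% higher and 18.6% lower. With the block these became 13 and 8, beside 5537 of all genes against 4695 in the main fit. This last comparison and both others share their arrays in NM18, so their changes are not independent of each other.

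**Figure D1:**
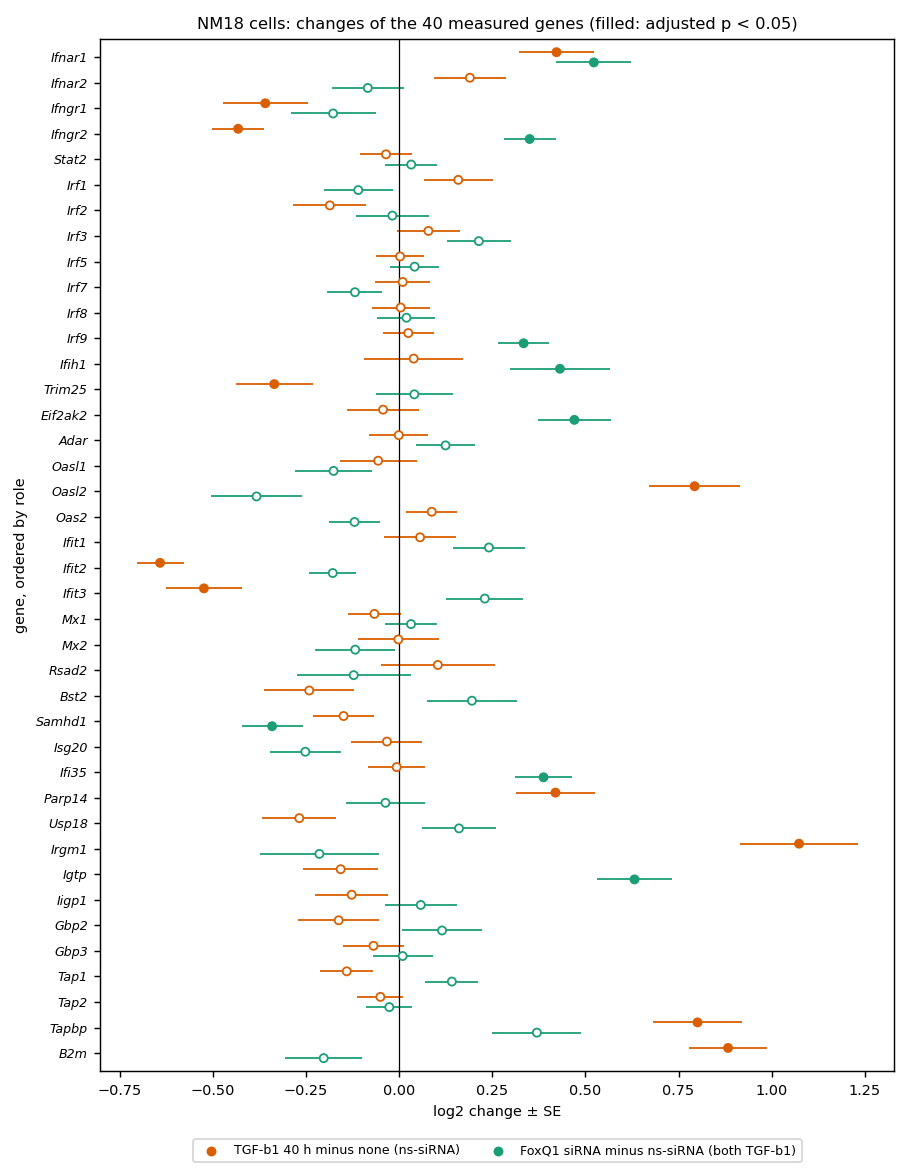
Log2 change with its standard error of each of the 40 genes measured in NM18 cells, for TGF-b1 for 40 h (orange) and for FoxQ1 siRNA in TGF-b1-treated cells (green), genes ordered by role. Filled points passed an adjusted p of 0.05: with TGF-b1 the highest is Irgm1 at 1.07 and the lowest Ifit2 at -0.64, and with FoxQ1 siRNA the highest is Igtp at 0.63.

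Promoters of some genes called above or between the kinds of RNA are shown, whether the genes rose or fell. Interferons act on their target genes through short elements near the start. The windows are RefSeq's, on GRCm38.p6, from 250 bases before the annotated start to 50 bases after it, written 5′ to 3′ in the direction of the gene. Tapbp, B2m, Ifi35 and Ifit2 had the smallest p-values of the list over all comparisons. Irgm1, Igtp and Eif2ak2 were added after their values were seen. Capitals mark matches, on both strands, to GAAANNGAA, a core of the interferon-stimulated response element, or to TTCNNNGAA, the gamma-activated site, which reads the same on both strands.
B2m (chr2:122147437-122147736, plus strand): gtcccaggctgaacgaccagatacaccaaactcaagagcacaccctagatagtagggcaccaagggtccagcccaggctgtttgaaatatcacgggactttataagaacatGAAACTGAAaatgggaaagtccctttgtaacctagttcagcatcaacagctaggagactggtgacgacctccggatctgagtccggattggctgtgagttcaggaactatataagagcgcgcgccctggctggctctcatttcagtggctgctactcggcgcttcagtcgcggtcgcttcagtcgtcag
Irgm1 (chr11:48871371-48871670, minus strand): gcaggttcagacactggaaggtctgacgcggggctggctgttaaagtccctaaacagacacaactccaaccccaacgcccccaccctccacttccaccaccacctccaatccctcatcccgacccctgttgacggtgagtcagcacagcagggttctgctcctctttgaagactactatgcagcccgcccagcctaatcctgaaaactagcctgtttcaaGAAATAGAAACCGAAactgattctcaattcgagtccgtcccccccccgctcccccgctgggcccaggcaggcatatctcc
Igtp (chr11:58199306-58199605, plus strand): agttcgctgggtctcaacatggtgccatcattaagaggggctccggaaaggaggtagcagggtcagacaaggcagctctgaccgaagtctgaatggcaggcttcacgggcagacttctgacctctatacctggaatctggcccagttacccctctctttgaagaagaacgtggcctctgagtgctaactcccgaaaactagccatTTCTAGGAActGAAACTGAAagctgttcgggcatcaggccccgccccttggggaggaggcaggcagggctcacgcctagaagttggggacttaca
Eif2ak2 (chr17:78882523-78882822, minus strand): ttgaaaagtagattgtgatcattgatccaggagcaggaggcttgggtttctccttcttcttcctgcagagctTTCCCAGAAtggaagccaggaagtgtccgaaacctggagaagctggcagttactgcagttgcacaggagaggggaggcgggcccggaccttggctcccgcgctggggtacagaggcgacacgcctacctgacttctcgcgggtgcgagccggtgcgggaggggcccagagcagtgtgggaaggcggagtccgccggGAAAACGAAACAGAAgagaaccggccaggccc
Ifi35 (chr11:101448162-101448461, plus strand): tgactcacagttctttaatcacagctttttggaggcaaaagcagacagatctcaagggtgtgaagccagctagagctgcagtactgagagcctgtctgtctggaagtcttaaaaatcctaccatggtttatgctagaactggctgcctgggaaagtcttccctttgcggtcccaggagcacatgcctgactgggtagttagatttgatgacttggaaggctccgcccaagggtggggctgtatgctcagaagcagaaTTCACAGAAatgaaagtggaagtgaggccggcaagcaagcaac
Ifit2 (chr19:34550444-34550743, plus strand, 1 of its 2 windows): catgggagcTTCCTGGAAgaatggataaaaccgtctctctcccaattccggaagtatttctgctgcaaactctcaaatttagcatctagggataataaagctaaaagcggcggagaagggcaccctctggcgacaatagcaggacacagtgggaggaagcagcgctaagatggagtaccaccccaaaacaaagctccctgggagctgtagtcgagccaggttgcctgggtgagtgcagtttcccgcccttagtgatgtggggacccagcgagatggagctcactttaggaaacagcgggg
Tapbp (chr17:33919228-33919527, plus strand): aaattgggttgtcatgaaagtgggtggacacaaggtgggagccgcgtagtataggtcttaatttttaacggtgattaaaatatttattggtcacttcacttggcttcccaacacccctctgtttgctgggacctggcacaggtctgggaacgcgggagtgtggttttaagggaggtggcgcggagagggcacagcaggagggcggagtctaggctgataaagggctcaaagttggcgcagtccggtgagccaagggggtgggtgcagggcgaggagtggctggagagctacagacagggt

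Irgm1 and Eif2ak2 each held 2 overlapping copies of the response element core, GAAATAGAA with GAAACCGAA in Irgm1 and GAAAACGAA with GAAACAGAA in Eif2ak2. Igtp and B2m each held GAAACTGAA, and Igtp and Eif2ak2 also a gamma-activated site, with no overlap between the 2 motifs in any window shown. The windows of Ifi35 and Ifit2 held a gamma-activated site alone, and the window of Tapbp held neither set of letters. Of the 43 genes, 36 had a window. The core was in 18 of their 45 windows (40.0%), against 2812 of 32851 windows of all genes (8.56%). The gamma-activated site was in 13 of the 45 (28.9%), against 2726 of all (8.30%). Among the genes called with FoxQ1 siRNA, the core was in the windows of Igtp, Eif2ak2 and Ifih1. Among those called with TGF-b1 for 40 h it was in B2m, Irgm1, Ifit3 and Trim25, and Parp14 had no window. A match describes letters, not a bound site.

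Of the receptors, Ifngr1, the ligand-binding chain of the interferon gamma receptor, was lower after TGF-b1 in both cell lines. Newly made NMuMG RNA had it at 9.67, 9.81 and 9.88 in control arrays and at 9.24, 9.25 and 9.23 with TGF-b1. The groups did not overlap, and Ifngr1 fell by 0.55 ± 0.15 (adjusted p = 0.0363), a call lost under 9 of the 19 alternatives run. In total RNA the levels were 10.45, 10.24 and 10.02 without and 10.18, 10.05 and 9.62 with TGF-b1, which overlapped, with a difference of -0.29 ± 0.15 (adjusted p = 0.602). In NM18 cells Ifngr1 stood at 10.70, 10.94 and 11.09 with ns-siRNA, 10.43, 10.49 and 10.73 with TGF-b1 and 10.24, 10.36 and 10.52 with FoxQ1 siRNA and TGF-b1. It fell by 0.36 ± 0.11 (adjusted p = 0.0331) with TGF-b1, with 1 treated array within the untreated range, and this call was lost without any 1 of 4 arrays. With FoxQ1 siRNA the further difference was -0.18 ± 0.11 (adjusted p = 0.35).

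Ifngr2, the signal-transducing chain of the same receptor, fell with TGF-b1 for 40 h and rose with FoxQ1 siRNA. Its levels were 10.20, 10.35 and 10.20 with ns-siRNA, 9.77, 9.84 and 9.85 with TGF-b1 and 10.22, 10.07 and 10.21 with FoxQ1 siRNA and TGF-b1. The middle group lay below both others. Ifngr2 fell by 0.43 ± 0.07 (adjusted p = 0.000695) with TGF-b1 and rose by 0.35 ± 0.07 (adjusted p = 0.00466) with FoxQ1 siRNA, and its other probe set gave -0.28 and 0.22. At 2 h in NMuMG, newly made RNA stood at 7.90, 8.45 and 8.60 without and 7.94, 8.37 and 8.61 with TGF-b1, which overlapped, and the difference was -0.01 ± 0.20 (adjusted p = 0.994).

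Ifnar1, a chain of the type I interferon receptor, rose in NM18 cells in both comparisons. It stood at 8.47, 8.63 and 8.72 with ns-siRNA, 8.98, 8.96 and 9.14 with TGF-b1 and 9.62, 9.34 and 9.69 with FoxQ1 siRNA and TGF-b1. The 3 groups did not overlap. Ifnar1 rose by 0.42 ± 0.10 (adjusted p = 0.00775) with TGF-b1 and rose by 0.52 ± 0.10 (adjusted p = 0.00378) with FoxQ1 siRNA, and with both together rose by 0.94 ± 0.10 (adjusted p = 2.22e-05). Ifnar2, its partner chain, stood at 9.52, 9.58 and 9.78 with ns-siRNA, at 9.80, 9.70 and 9.95 with TGF-b1 and at 9.71, 9.61 and 9.87 with both FoxQ1 siRNA and TGF-b1, all overlapping, and passed in none of these comparisons. Its TGF-b1 difference was 0.19 ± 0.10 (adjusted p = 0.179), with an adjusted p of 0.0179 in the blocked fit. In NMuMG at 2 h neither chain passed. The newly made RNA differences were 0.04 ± 0.14 for Ifnar1 and -0.08 ± 0.20 for Ifnar2.

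**Figure D2:**
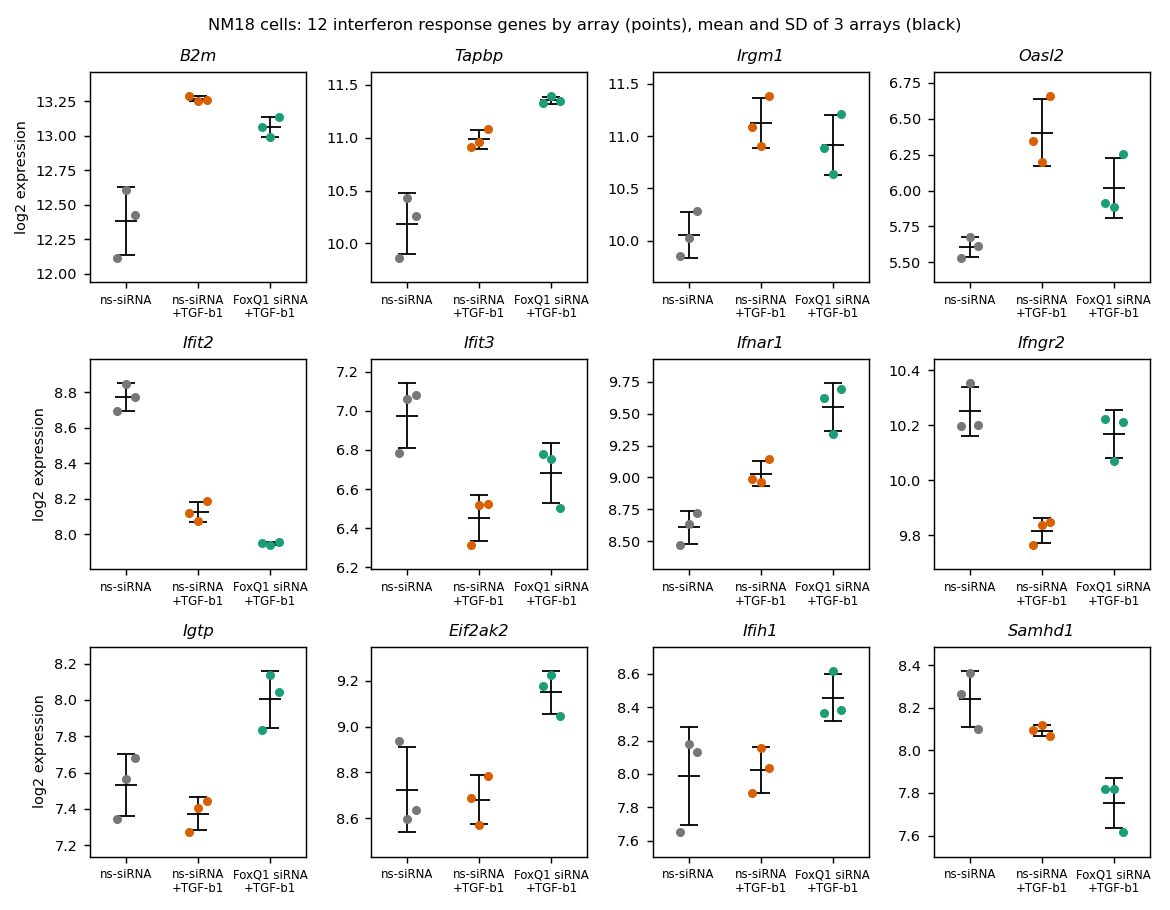
Log2 expression of 12 genes in each NM18 array (points) with the mean and SD of 3 arrays (black), for ns-siRNA alone (grey), ns-siRNA and TGF-b1 (orange), and TGF-b1 after FoxQ1 siRNA (green); each panel has its own axis, which does not start at 0. B2m, Tapbp, Irgm1 and Oasl2 are higher in every TGF-b1 array than in every array without, Ifit2 is lower in every one, and Igtp and Eif2ak2 are higher only with FoxQ1 siRNA.

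Of the 8 transcription factors of the pathway, 1 passed with TGF-b1 at 2 h in newly made RNA (12.5%, beside 6.13% of all genes) and 0 of 8 at 40 h (beside 30.7% of all genes). Irf2, a factor that binds interferon response elements and can repress them, was that 1. Newly made NMuMG RNA had it at 6.25, 6.41 and 6.20 in controls and 5.78, 5.90 and 5.47 with TGF-b1. The groups did not overlap, and Irf2 fell by 0.57 ± 0.12 (adjusted p = 0.00924). In total RNA the levels were 5.26, 5.40 and 5.28 without and 5.07, 4.98 and 4.91 with TGF-b1, also apart, with a difference of -0.33 ± 0.12 (adjusted p = 0.303). In NM18 at 40 h the levels were 7.36, 7.36 and 7.72 with ns-siRNA and 7.22, 7.25 and 7.42 with TGF-b1, which overlapped, with a difference of -0.19 ± 0.10 (adjusted p = 0.198). The Irf2 call at 2 h was lost in a fit of the compared arrays alone (adjusted p = 0.065) and without either of 2 arrays, control replicate 2 or TGF-b1 replicate 3. Irf2's probe set is of a kind that can match several transcripts.

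Irf9, a DNA-binding factor of the type I interferon response, rose with FoxQ1 siRNA. It stood at 7.08, 7.25 and 7.26 with ns-siRNA, 7.23, 7.19 and 7.25 with TGF-b1 and 7.62, 7.51 and 7.54 with FoxQ1 siRNA and TGF-b1. All FoxQ1 siRNA arrays lay above all others, and Irf9 rose by 0.33 ± 0.07 (adjusted p = 0.00517). With TGF-b1 alone the difference was 0.02 ± 0.07 (adjusted p = 0.85). Irf3, the factor that RNA sensing activates, stood at 9.04, 9.08 and 9.27 with ns-siRNA, at 9.20, 9.09 and 9.34 with TGF-b1 and at 9.45, 9.34 and 9.48 with both FoxQ1 siRNA and TGF-b1. Against untreated cells Irf3 rose by 0.29 ± 0.09 (adjusted p = 0.0179) with FoxQ1 siRNA and TGF-b1 together, a call lost without any 1 of 4 of the arrays, ns-siRNA replicate 1 among them. The 6 other factors, Stat2, Irf1, Irf2, Irf5, Irf7 and Irf8, passed in no NM18 comparison without the replicate block, and with it Irf2 was called lower with both treatments against untreated cells (adjusted p = 0.0428). Irf1, itself an early interferon target, stood in newly made NMuMG RNA at 9.68, 9.57 and 9.47 without and 9.77, 9.73 and 9.97 with TGF-b1, apart but not called, with a difference of 0.25 ± 0.11 (adjusted p = 0.266).

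Of the RNA sensors and RNA-acting genes, Oasl2, a 2′-5′-oligoadenylate synthetase-like protein, rose with TGF-b1 at 2 h and at 40 h. In newly made NMuMG RNA it stood at 4.30, 4.12 and 4.04 without and 5.04, 4.87 and 4.99 with TGF-b1. In total RNA the levels were 4.27, 4.42 and 4.65 without and 5.08, 5.32 and 5.10 with TGF-b1. All TGF-b1 arrays lay above all control arrays in both kinds of RNA. Oasl2 rose by 0.81 ± 0.13 (adjusted p = 0.000592) in newly made RNA, 1.76-fold, and rose by 0.72 ± 0.13 (adjusted p = 0.00316) in total RNA, 1.64-fold. In NM18 cells the levels were 5.53, 5.67 and 5.62 with ns-siRNA, 6.34, 6.20 and 6.66 with TGF-b1 and 5.92, 5.88 and 6.25 with FoxQ1 siRNA and TGF-b1. The untreated arrays lay below all others, and Oasl2 rose by 0.79 ± 0.12 (adjusted p = 0.00052) with TGF-b1. With FoxQ1 siRNA the difference was -0.38 ± 0.12 (adjusted p = 0.0503), the groups overlapped, and the blocked adjusted p was 0.00961. Its TGF-b1 calls in newly made and total NMuMG RNA and in NM18 cells with ns-siRNA held under the 18 alternatives in NMuMG and the 14 in NM18 that tested it, which leave out the one restricted to genes above the median level. The probe set of Oasl2 was of low brightness, with a mean of 4.68 in NMuMG and 6.01 in NM18. The median gene stood at 6.67 and 7.79. With FoxQ1 siRNA and TGF-b1 together Oasl2 rose by 0.41 ± 0.12 (adjusted p = 0.0206) against untreated cells, a call lost without ns-siRNA replicate 1 or FoxQ1 siRNA replicate 3.

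Trim25, a ubiquitin ligase that activates the RNA sensor Ddx58 (RIG-I), was lower with TGF-b1 in both cell lines. In newly made NMuMG RNA it stood at 11.24, 11.37 and 11.48 without and 10.77, 10.99 and 10.85 with TGF-b1, apart, and fell by 0.49 ± 0.12 (adjusted p = 0.0175). Its 3 probe sets differed there by -0.44 to -0.55. In total RNA the levels were 11.30, 11.13 and 11.35 without and 10.95, 10.75 and 10.73 with TGF-b1, apart, with a difference of -0.45 ± 0.12 (adjusted p = 0.0609) and a blocked adjusted p of 0.0472. In NM18 cells the levels were 10.16, 10.16 and 10.51 with ns-siRNA, 9.84, 9.89 and 10.09 with TGF-b1 and 9.93, 9.93 and 10.08 with FoxQ1 siRNA and TGF-b1. Trim25 fell by 0.34 ± 0.10 (adjusted p = 0.0291) with TGF-b1, and the siRNA difference was 0.04 ± 0.10 (adjusted p = 0.855). The NM18 call was lost without any 1 of 3 arrays. The NMuMG call was lost without any 1 of 4 arrays and in a fit of the compared arrays alone (adjusted p = 0.0668). Oasl2, Ifngr1 and Trim25 were the 3 genes called in the same direction in newly made RNA at 2 h and in NM18 cells at 40 h, and 0 were called in opposite directions. How often all genes did so was not counted, so this does not set the list apart from other genes.

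Eif2ak2 (PKR), the kinase that halts translation when it meets double-stranded RNA, and Ifih1 (MDA5), a sensor of long double-stranded RNA, rose with FoxQ1 siRNA. Eif2ak2 stood at 8.94, 8.60 and 8.64 with ns-siRNA, 8.69, 8.57 and 8.78 with TGF-b1 and 9.18, 9.23 and 9.05 with FoxQ1 siRNA and TGF-b1. The FoxQ1 siRNA arrays lay above both other groups, Eif2ak2 rose by 0.47 ± 0.10 (adjusted p = 0.00569), and its other probe set gave 0.38. With TGF-b1 alone the difference was -0.04 ± 0.10 (adjusted p = 0.81). Ifih1 stood at 7.65, 8.18 and 8.13 with ns-siRNA, at 7.88, 8.16 and 8.03 with TGF-b1 and at 8.37, 8.62 and 8.38 with both FoxQ1 siRNA and TGF-b1, the last apart from the others, and rose by 0.43 ± 0.13 (adjusted p = 0.0427) with FoxQ1 siRNA. That call was lost without any 1 of 5 of the 6 arrays compared, in adjusted p though not in direction. Adar, which edits double-stranded RNA, and Oasl1 and Oas2 passed in no NM18 comparison without the replicate block and in no TGF-b1 comparison in NMuMG, nor did Ddx58 in the latter. The blocked fit called Oasl1 lower with both treatments against untreated cells (adjusted p = 0.0199).

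The antiviral effectors Ifit2 and Ifit3, of 1 gene family, fell with TGF-b1 in NM18 cells. Ifit2 in NM18 cells stood at 8.69, 8.85 and 8.77 with ns-siRNA, 8.12, 8.08 and 8.19 with TGF-b1 and 7.95, 7.94 and 7.96 with FoxQ1 siRNA and TGF-b1. The 3 groups did not overlap, and Ifit2 fell by 0.64 ± 0.06 (adjusted p = 2.58e-05) with TGF-b1, a 1.56-fold difference. The siRNA difference was -0.18 ± 0.06 (adjusted p = 0.0738), with 0.0437 in the blocked fit. In newly made NMuMG RNA Ifit2 stood at 8.88, 9.64 and 9.88 without and 8.04, 8.94 and 9.12 with TGF-b1, and in total RNA at 8.44, 8.66 and 8.73 without and 7.82, 8.15 and 8.09 with TGF-b1. Each TGF-b1 array was below the control array of its own number, although in newly made RNA the groups overlapped. The newly made RNA difference was -0.77 ± 0.26 (adjusted p = 0.105), with an adjusted p of 0.00153 in the blocked fit and 1.34e-05 with a block for each kind of RNA. In total RNA it was -0.59 ± 0.26 (adjusted p = 0.444), with 0.0283 and 0.00067 in the blocked fits.

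Ifit3 stood at 6.79, 7.06 and 7.08 with ns-siRNA, 6.31, 6.52 and 6.52 with TGF-b1 and 6.78, 6.76 and 6.51 with FoxQ1 siRNA and TGF-b1. It fell by 0.52 ± 0.10 (adjusted p = 0.00245) with TGF-b1, groups apart, and the siRNA difference was 0.23 ± 0.10 (adjusted p = 0.16). In newly made NMuMG RNA Ifit3 stood at 5.63, 5.86 and 5.38 without and 5.28, 5.22 and 5.23 with TGF-b1, also apart. The difference was -0.38 ± 0.14 (adjusted p = 0.146), with 0.0341 in the fit with a block for each kind of RNA. Ifit1, the third member of the family on the list, did not pass with TGF-b1. Its NM18 levels stood at 5.90, 5.81 and 5.56 with ns-siRNA, at 5.91, 5.81 and 5.73 with TGF-b1 and at 6.10, 6.14 and 5.92 with both FoxQ1 siRNA and TGF-b1. Its TGF-b1 difference was 0.06 ± 0.10 (adjusted p = 0.748), and with FoxQ1 siRNA and TGF-b1 together Ifit1 rose by 0.30 ± 0.10 (adjusted p = 0.0302) against untreated cells, a call lost in a fit of the compared arrays alone (adjusted p = 0.0506) and without any 1 of 3 arrays. Whether Ifit1 differs from Ifit2 and Ifit3 in its response was not tested.

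Parp14, an ADP-ribosyltransferase, rose with TGF-b1 in NM18 cells. It stood at 6.20, 6.66 and 6.32 with ns-siRNA, 6.74, 6.83 and 6.87 with TGF-b1 and 6.81, 6.66 and 6.85 with FoxQ1 siRNA and TGF-b1. The TGF-b1 arrays lay above the untreated ones, and Parp14 rose by 0.42 ± 0.11 (adjusted p = 0.0106). Ifi35, an interferon-induced leucine zipper protein, stood at 8.63, 8.68 and 8.80 with ns-siRNA, at 8.63, 8.64 and 8.82 with TGF-b1 and at 9.14, 8.99 and 9.13 with both FoxQ1 siRNA and TGF-b1, the last group above both others, and rose by 0.39 ± 0.08 (adjusted p = 0.00451) with FoxQ1 siRNA. At 2 h in newly made NMuMG RNA Ifi35 was at 8.45, 9.04 and 8.70 without and 7.98, 8.46 and 8.17 with TGF-b1. There the groups overlapped, and the difference was -0.53 ± 0.15 (adjusted p = 0.0564), with 0.0177 in the blocked fit. These values come from another probe set than in NM18, of a kind that can match several transcripts. The probe set used in NM18 gave -0.18 in the same arrays, and the remaining one -0.35.

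Samhd1, which depletes the nucleotides that viruses need to copy DNA, was the 1 gene that fell with FoxQ1 siRNA. It stood at 8.26, 8.36 and 8.10 with ns-siRNA, 8.09, 8.12 and 8.07 with TGF-b1 and 7.82, 7.82 and 7.62 with FoxQ1 siRNA and TGF-b1. The FoxQ1 siRNA arrays lay below all others, and Samhd1 fell by 0.34 ± 0.08 (adjusted p = 0.0124). Its other 3 probe sets gave -0.03 to -0.24. In NMuMG another probe set stood for Samhd1, and total control replicate 3 was at 8.19 against 10.47 and 10.79 for the other control arrays. Its standard error there was 0.48, and it passed in no NMuMG comparison. The TGF-b1 differences by this set were 0.29 in newly made and 0.44 in total RNA. By the probe set used in NM18 they were -0.32 and -0.19. Over all its sets they ran from -0.32 to 0.49 and from -0.31 to 0.44, so the direction is uncertain.

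Isg20, an exonuclease that degrades single-stranded RNA, stood at 9.63, 9.43 and 9.77 with ns-siRNA, 9.57, 9.47 and 9.70 with TGF-b1 and 9.25, 9.29 and 9.43 with FoxQ1 siRNA and TGF-b1. The siRNA difference was -0.25 ± 0.10 (adjusted p = 0.0934), with 0.0101 in the blocked fit. Against untreated cells Isg20 fell by 0.29 ± 0.10 (adjusted p = 0.0344) with both treatments, with groups that overlapped, and the call was lost without any 1 of 4 of the arrays, ns-siRNA replicate 1 among them. Mx1, Mx2 and Rsad2, GTPases and an enzyme that act against viral replication, and Bst2, which tethers budding virus, passed in no NM18 comparison without the replicate block, with TGF-b1 differences of -0.24 to 0.10. The lowest of these, that of Bst2, had an adjusted p of 0.035 in the blocked fit. Usp18, the protease that removes Isg15 from proteins, stood at 6.14, 6.20 and 6.11 with ns-siRNA, at 6.01, 5.91 and 5.72 with TGF-b1 and at 6.11, 6.18 and 5.83 with both FoxQ1 siRNA and TGF-b1. Its TGF-b1 difference was -0.27 ± 0.10 (adjusted p = 0.0624) and 0.0102 in the blocked fit.

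**Figure D3:**
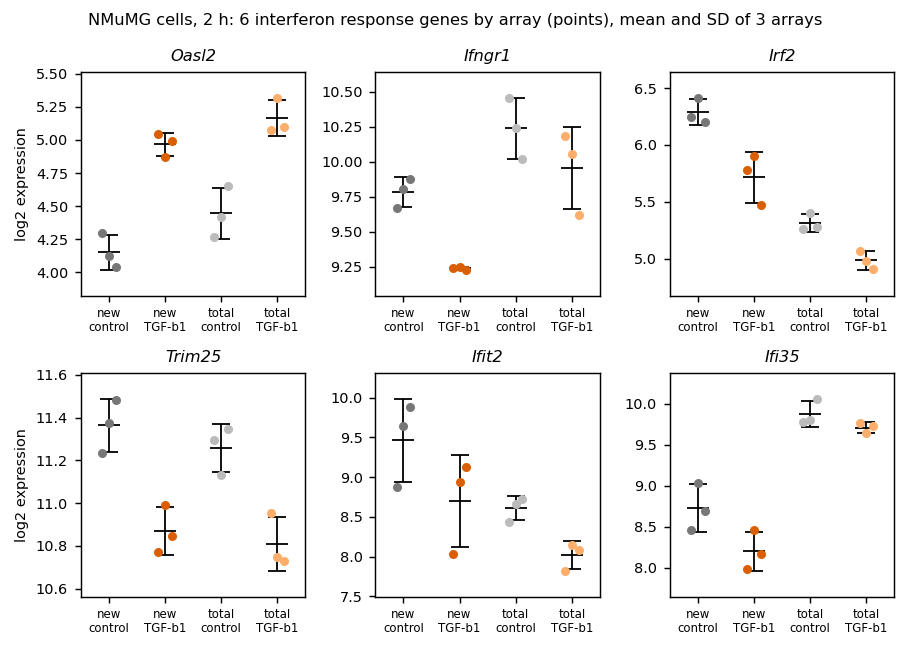
Log2 expression of 6 genes in each NMuMG array (points) with the mean and SD of 3 arrays (black), for newly made and total RNA without and with TGF-b1 for 2 h; each panel has its own axis, which does not start at 0. Oasl2 lies higher in all 6 TGF-b1 arrays than in the controls of the same kind of RNA, and Irf2 and Trim25 lie lower.

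Among the interferon-induced GTPases, which act on membranes around intracellular microbes, Irgm1 passed with TGF-b1 and Igtp with FoxQ1 siRNA. Irgm1 stood at 9.85, 10.03 and 10.28 with ns-siRNA, 11.09, 10.91 and 11.38 with TGF-b1 and 10.89, 10.64 and 11.21 with FoxQ1 siRNA and TGF-b1. Untreated arrays lay below both other groups, which overlapped. Irgm1 rose by 1.07 ± 0.16 (adjusted p = 0.000382) with TGF-b1, or 2.10-fold, the largest rise of the list with TGF-b1 and ns-siRNA, and the siRNA difference was -0.21 ± 0.16 (adjusted p = 0.433). At 2 h in NMuMG its levels were 9.57, 9.39 and 9.79 without and 9.40, 9.32 and 9.67 with TGF-b1 in newly made RNA, which overlapped, with a difference of -0.12 ± 0.15 (adjusted p = 0.817).

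Igtp stood at 7.34, 7.56 and 7.68 with ns-siRNA, 7.27, 7.41 and 7.44 with TGF-b1 and 7.83, 8.14 and 8.04 with FoxQ1 siRNA and TGF-b1. The FoxQ1 siRNA arrays lay above both other groups, which overlapped. Igtp rose by 0.63 ± 0.10 (adjusted p = 0.0013) with FoxQ1 siRNA, or 1.55-fold, the largest siRNA change of the list, and its TGF-b1 difference was -0.16 ± 0.10 (adjusted p = 0.309). In newly made NMuMG RNA it stood at 7.09, 6.91 and 6.74 without and 6.64, 6.36 and 6.52 with TGF-b1, apart, with a difference of -0.41 ± 0.13 (adjusted p = 0.0956) and 0.0434 in the blocked fit. Iigp1, Gbp2 and Gbp3 passed in no TGF-b1 or siRNA comparison.

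In antigen processing, B2m, the invariant light chain of class I molecules, and Tapbp (tapasin), which holds class I molecules at the peptide transporter, rose with TGF-b1 in NM18 cells, while the transporter genes Tap1 and Tap2 did not pass. B2m stood at 12.12, 12.61 and 12.42 with ns-siRNA, 13.29, 13.25 and 13.26 with TGF-b1 and 13.07, 12.99 and 13.13 with FoxQ1 siRNA and TGF-b1. The 3 groups did not overlap. B2m rose by 0.88 ± 0.10 (adjusted p = 8.17e-05) with TGF-b1, 1.84-fold, and 0.90 in its other probe set, and the siRNA difference was -0.20 ± 0.10 (adjusted p = 0.226). Tapbp stood at 9.86, 10.43 and 10.26 with ns-siRNA, at 10.91, 10.96 and 11.09 with TGF-b1 and at 11.33, 11.39 and 11.35 with both FoxQ1 siRNA and TGF-b1, again apart from each other. Tapbp rose by 0.80 ± 0.12 (adjusted p = 0.000397) with TGF-b1, and 0.52 in its other probe set. The siRNA difference was 0.37 ± 0.12 (adjusted p = 0.0516), with 0.0167 in the blocked fit, and with both treatments Tapbp rose by 1.17 ± 0.12 (adjusted p = 1.59e-05), or 2.25-fold. Without ns-siRNA replicate 1, the lowest untreated array for both genes, the TGF-b1 changes were 0.75 for B2m and 0.64 for Tapbp. Tap1 and Tap2 had TGF-b1 differences of -0.14 ± 0.07 (adjusted p = 0.179) and -0.05 ± 0.06 (adjusted p = 0.63). At 2 h in NMuMG none of the 4 passed, with differences of -0.28 to 0.21 in newly made RNA.

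Newly made RNA set against total RNA of the same treatment shows which transcripts are over- or under-represented among those made within 2 h. The arrays give this only relative to other genes, and the enrichment itself is part of the difference. In controls newly made RNA held 6 genes of the list at a higher and 14 at a lower level, beside 44.0% of all genes called, 17.2% higher and 26.8% lower. With each array centred on its median these became 8 and 9, and with quantile normalization 8 and 10, so the excess of lower over higher calls in controls depended on the scaling. All genes moved likewise. Of all control calls 39.1% were higher in the main fit, 48.7% with centring and 47.8% with quantile normalization. With TGF-b1 7 were higher and 14 lower, beside 45.0% of all genes, 18.3% higher and 26.8% lower. These became 7 and 12 with centring and 7 and 13 with quantile normalization. Of the calls over all genes, 40.5% were higher in the main fit, 50.3% with centring and 48.0% with quantile normalization. The same direction was called with and without TGF-b1 for 6 higher and 11 lower genes. How often all genes did so was not counted, so these numbers do not set the list apart from other genes. The median of all genes was -0.08 in both, and 0.03 and 0.04 with each array centred on its median. Of the list, 48.8% were called in controls and 51.2% with TGF-b1, against the 44.0% and 45.0% of all genes.

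B2m and Tapbp were the furthest below their total RNA. B2m stood at 9.19, 9.54 and 9.39 in newly made and 11.51, 11.28 and 11.69 in total control RNA, and with TGF-b1 at 9.47, 9.69 and 9.59 in newly made and 11.49, 11.54 and 11.32 in total RNA. The kinds of RNA lay far apart, with differences of -2.12 ± 0.13 (adjusted p = 4.58e-09) in controls and -1.86 ± 0.13 (adjusted p = 1.03e-08) with TGF-b1, and both probe sets gave -2.12 in controls. Tapbp stood at 7.43, 7.68 and 7.33 in newly made and 9.45, 9.29 and 9.36 in total control RNA, and with TGF-b1 at 7.32, 7.46 and 7.26 in newly made and 9.47, 9.30 and 9.32 in total RNA. The differences were -1.89 ± 0.12 (adjusted p = 4.35e-09) and -2.02 ± 0.12 (adjusted p = 1.68e-09), but its other probe set gave -0.48 in controls. Tap2 followed less far, at 5.61, 5.47 and 5.48 in newly made and 5.91, 5.88 and 5.76 in total control RNA, -0.33 ± 0.12 (adjusted p = 0.0353), and with TGF-b1 at 5.35, 5.04 and 5.32 in newly made and 5.88, 6.13 and 5.86 in total RNA, -0.72 ± 0.12 (adjusted p = 9.87e-05). The control call of Tap2 was lost under 7 of 17 alternatives, among them quantile normalization (adjusted p = 0.054), centring (0.171) and a fit of the compared arrays alone (0.055), and that with TGF-b1 under 0 of 17. Tap1 did not pass, at -0.12 ± 0.13 (adjusted p = 0.5) in controls.

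**Figure D4:**
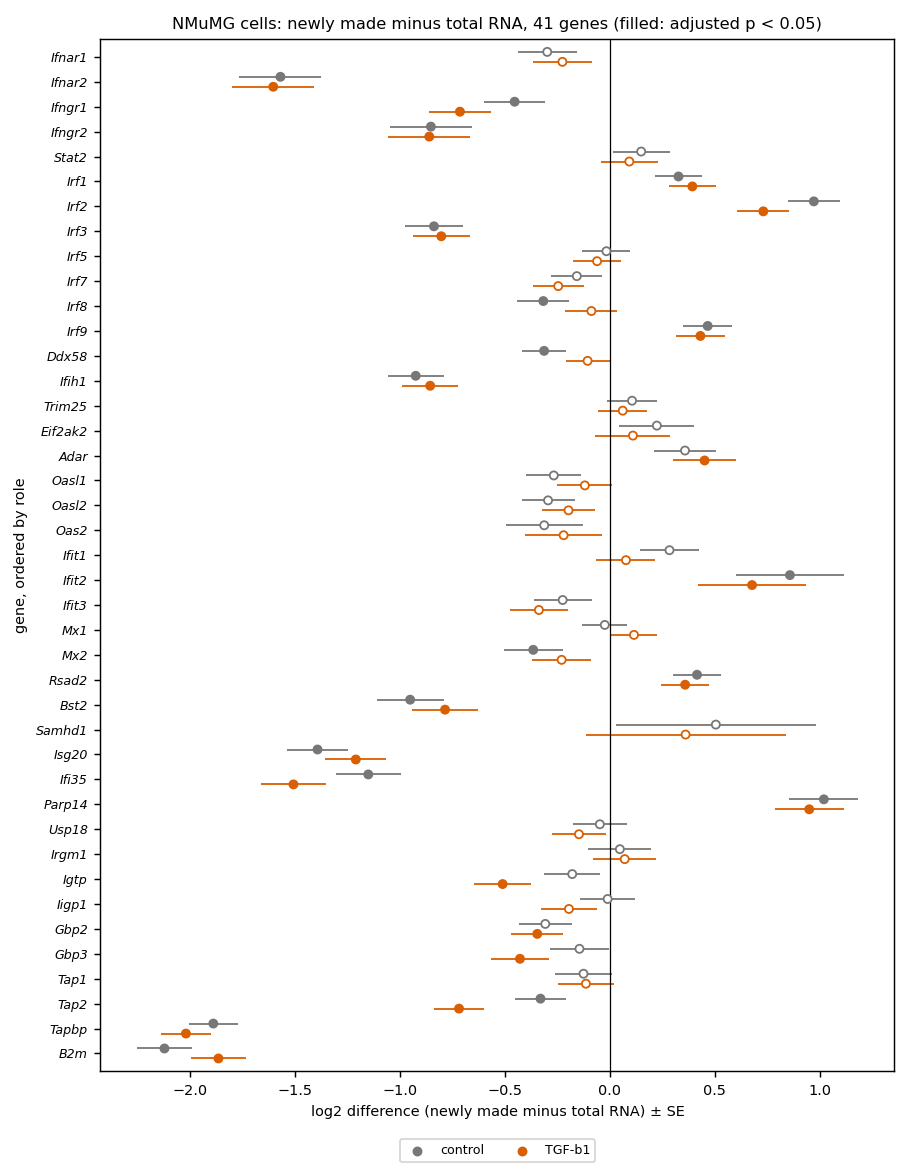
Log2 difference, newly made minus total RNA, with its standard error for each of the 41 genes measured in NMuMG cells, in controls (grey) and with TGF-b1 (orange), genes ordered by role. Filled points passed an adjusted p of 0.05; Tapbp and B2m lie lowest, between -1.86 and -2.12, and Parp14 lies highest at 1.02 in controls and 0.95 with TGF-b1.

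Isg20 and Ifi35 were also well below total RNA. Isg20 stood at 7.86, 8.07 and 7.60 in newly made and 9.20, 9.07 and 9.44 in total control RNA, a difference of -1.39 ± 0.14 (adjusted p = 6.52e-07). With TGF-b1 it stood at 8.29, 8.44 and 8.05 in newly made and 9.59, 9.41 and 9.42 in total RNA, a difference of -1.21 ± 0.14 (adjusted p = 2.73e-06). Neither pair of groups overlapped. Ifi35 stood at 8.45, 9.04 and 8.70 in newly made and 9.77, 9.81 and 10.06 in total control RNA, and at 9.76, 9.64 and 9.73 in total RNA with TGF-b1. Its differences were -1.15 ± 0.15 (adjusted p = 1.03e-05) in controls and -1.51 ± 0.15 (adjusted p = 4.98e-07) with TGF-b1, and its 3 probe sets gave -0.75 to -1.15 in controls. Ifih1 was at 6.62, 6.57 and 6.62 in newly made and 7.66, 7.37 and 7.56 in total control RNA, apart, with -0.92 ± 0.13 (adjusted p = 2.06e-05). Bst2 was at 5.48, 5.52 and 5.62 in newly made and 6.45, 6.11 and 6.90 in total control RNA, also apart, with -0.95 ± 0.16 (adjusted p = 0.000101). With TGF-b1 these 2 genes were again lower, Ifih1 by a difference of -0.85 ± 0.13 and Bst2 by one of -0.78 ± 0.16.

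Parp14, Irf2 and Ifit2 led the genes over-represented in newly made RNA. Parp14 stood at 6.93, 7.36 and 7.50 in newly made and 6.06, 6.25 and 6.42 in total control RNA, apart, with 1.02 ± 0.16 (adjusted p = 6.76e-05) and 0.35 in its other probe set. With TGF-b1 it stood at 6.65, 7.06 and 7.19 in newly made and 6.11, 5.89 and 6.05 in total RNA, with 0.95 ± 0.16 (adjusted p = 0.000131). Irf2, whose levels are given above, had differences of 0.97 ± 0.12 (adjusted p = 6.15e-06) in controls and 0.73 ± 0.12 (adjusted p = 0.000112) with TGF-b1. Ifit2 had 0.86 ± 0.26 (adjusted p = 0.0116) and 0.68 ± 0.26 (adjusted p = 0.0413), the second with overlapping groups. The control call of Ifit2 was lost without either of 2 arrays, and that with TGF-b1 without any 1 of 8. Irf9, at 7.01, 7.15 and 7.20 in newly made and 6.48, 6.69 and 6.79 in total control RNA, had 0.47 ± 0.12 (adjusted p = 0.00341). Irf1, at 9.18, 9.20 and 9.36 in total control RNA, had 0.33 ± 0.11 (adjusted p = 0.0236), lost under 5 of 18 alternatives. Rsad2 (viperin), at 6.12, 5.92 and 6.05 in newly made and 5.58, 5.51 and 5.75 in total control RNA, had 0.42 ± 0.12 (adjusted p = 0.0072), but 1 of its 3 probe sets gave -0.14. None of the groups in these 3 genes overlapped, and with TGF-b1 each was called higher again, by 0.36 to 0.43.

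For several genes the sign or size of this difference depended on the probe set. Ifnar2 stood at 6.62, 7.23 and 7.26 in newly made and 8.52, 8.54 and 8.75 in total control RNA by its brightest probe set, a difference of -1.57 ± 0.20 (adjusted p = 4.65e-06), while its others gave 0.76 and 1.84. With TGF-b1 the brightest gave -1.60 ± 0.20 (adjusted p = 3.41e-06). Ifnar1 gave -0.30 ± 0.14 (adjusted p = 0.103) by its brightest set, at 7.94, 8.29 and 8.47 against 8.45, 8.46 and 8.69, and 1.46 by the other. Adar, at 9.41, 8.99 and 9.08 against 8.79, 9.08 and 8.55, gave 0.36 ± 0.15 (adjusted p = 0.064) by its brightest and -0.85 and 2.04 by the others. It was called with TGF-b1, at 0.45 ± 0.15 (adjusted p = 0.0204). The direction of these 3 genes is uncertain, although the counts above hold Ifnar2 and Adar by their brightest sets. Ifngr2, at 7.90, 8.45 and 8.60 against 8.98, 9.02 and 9.49, gave -0.85 ± 0.20 (adjusted p = 0.00175) by its brightest set and -0.04 by the other. Irf3, at 8.98, 8.96 and 8.89 against 9.69, 9.52 and 10.13, gave -0.84 ± 0.14 (adjusted p = 7.4e-05) by its brightest, -0.89 by another, and -0.06 and 0.06 by the remaining sets. Irf3's brightest set is of a kind whose probes can match other sequences. Samhd1, not called here, gave 0.50 by its brightest set and ran from -0.56 to 1.59 over its sets in controls.

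**Figure D5:**
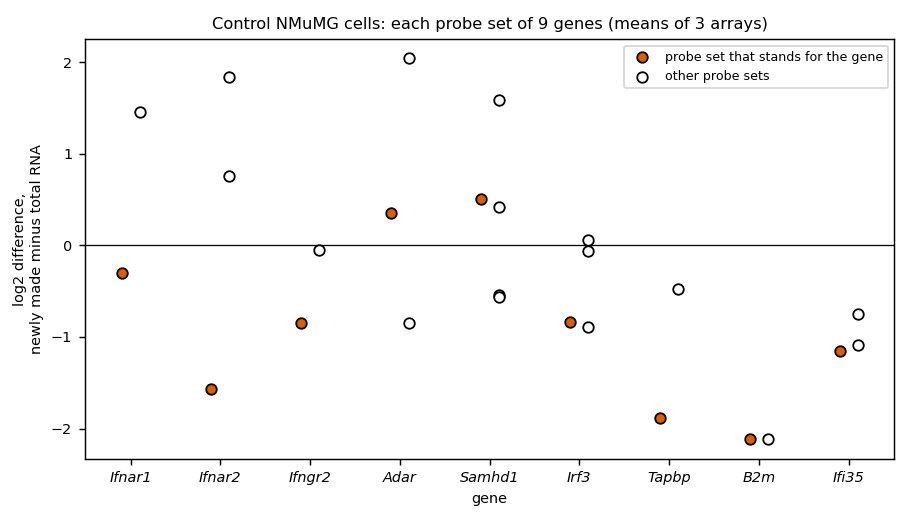
Log2 difference, newly made minus total RNA, in control NMuMG cells for each probe set of 9 genes, as differences of the means of 3 arrays, with the brightest probe set in orange and the others in white. The sets of B2m lie together at -2.12 and those of Ifi35 between -0.75 and -1.15, whereas those of Ifnar2 run from -1.57 to 1.84 and those of Adar from -0.85 to 2.04.

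The remaining calls between the kinds of RNA were small or held in 1 treatment alone. Ifngr1, whose levels are given above, had -0.45 ± 0.15 (adjusted p = 0.0184) in controls and -0.71 ± 0.15 (adjusted p = 0.000643) with TGF-b1, with the groups apart in both, and the control call was lost with quantile normalization or centring. Ddx58 stood at 6.54, 6.59 and 6.45 in newly made and 6.89, 6.79 and 6.84 in total control RNA, with -0.31 ± 0.10 (adjusted p = 0.0221), but its other probe sets gave 0.39 and 0.11. Mx2 stood at 5.17, 5.00 and 4.65 in newly made and 5.27, 5.33 and 5.32 in total control RNA, with -0.36 ± 0.14 (adjusted p = 0.0446), and Irf8 at 4.74, 5.06 and 4.75 in newly made and 5.21, 5.19 and 5.09 in total control RNA, with -0.32 ± 0.12 (adjusted p = 0.0479). These 3 genes passed in controls alone, and none of the 3 did so with each array centred on its median. Igtp passed with TGF-b1 alone, at 6.64, 6.36 and 6.52 against 7.09, 6.76 and 7.19, with -0.51 ± 0.13 (adjusted p = 0.00471). So did Gbp2, at 4.59, 4.37 and 4.57 against 4.89, 4.92 and 4.75, with -0.35 ± 0.12 (adjusted p = 0.0329), and Gbp3, at 4.44, 3.91 and 4.20 against 4.69, 4.72 and 4.41, with -0.43 ± 0.14 (adjusted p = 0.0194), but with each array centred on its median neither was called (adjusted p = 0.172 for Gbp2 and 0.084 for Gbp3). That the calls differ between treatments does not show a difference, since the test of that difference, given above, called none of the list. Without a replicate block, the 9 genes called in no comparison of either line were Stat2, Irf5, Irf7, Oasl1, Oas2, Mx1, Usp18, Iigp1 and Tap1.

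Further genes of the interferon and class I pathways that are not on the list, 78 measured in NMuMG and 70 in NM18, came from a second list, chosen like the first with earlier results known. From it the 4 genes with the smallest p-values are named per comparison. TGF-b1 for 2 h raised 3 and lowered 5 in newly made RNA, 10.3% of those measured beside the 6.13% of all genes. Jak2, a kinase of the interferon gamma receptor, rose by 0.92 ± 0.13 (adjusted p = 0.000211), and Nmi rose by 0.71 ± 0.14 (adjusted p = 0.00355). Ikbke, a kinase that activates Irf3, fell by 0.96 ± 0.14 (adjusted p = 0.000385), and the cytokine Il15 fell by 0.73 ± 0.15 (adjusted p = 0.006). In total RNA 2 rose and 2 fell, 5.13% beside the 2.48% of all genes. The chemokine Cxcl10 rose by 0.76 ± 0.16 (adjusted p = 0.0154) and Jak2 rose by 0.61 ± 0.13 (adjusted p = 0.0118). Il15 fell by 0.66 ± 0.15 (adjusted p = 0.022) and Irf2bp2, a partner of Irf2, fell by 0.51 ± 0.12 (adjusted p = 0.0241). For the difference of these effects 0 passed by limma, and 2 had an unadjusted p under 0.05.

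TGF-b1 for 40 h in NM18 raised 12 and lowered 10 of the 70, 31.4% beside the 30.7% of all genes, with Tor3a (0.66 ± 0.08) and Stat3 (0.82 ± 0.12) higher and Ikbke (-0.98 ± 0.12) and Lgals3bp (-0.75 ± 0.09) lower. FoxQ1 siRNA raised 8 and lowered 4, 17.1% beside the 19.6% of all genes. Cxcl10, which interferons induce, fell by 1.91 ± 0.27 (adjusted p = 0.000526) and Tor3a fell by 0.61 ± 0.08 (adjusted p = 0.000259). Tyk2, a kinase of the type I receptor, rose by 0.46 ± 0.08 (adjusted p = 0.00141), and Irgm2, a GTPase related to Irgm1, rose by 0.64 ± 0.10 (adjusted p = 0.00141). Of the 10 class I and immunoproteasome genes in NM18, 4 rose and 0 fell with TGF-b1, beside 13.2% of all genes higher and 17.5% lower. With FoxQ1 siRNA 1 rose and 2 fell, beside 11.3% and 8.28% of all genes. The 2 that fell were the class I heavy chains H2-D1 (-0.90 ± 0.24) and H2-K1 (-0.85 ± 0.24), named after their values were seen. These are close in sequence and may share probes. Between newly made and total control RNA, 10 pathway genes were higher and 22 lower, 41.03% beside the 44.0% of all genes, the smallest p-values being those of H2-K1 (-2.43 ± 0.12), Lgals3bp (-2.23 ± 0.12), Psme1 (-1.92 ± 0.12) and Lgals9 (-1.98 ± 0.15). With TGF-b1 11 were higher and 27 lower, 48.7% beside the 45.0% of all genes, with the smallest p-values in the same 4. Of the 11 class I and immunoproteasome genes, 9 were lower and 0 higher in controls, and 10 and 0 with TGF-b1, where 26.8% of all genes were lower in each. With FoxQ1 siRNA and TGF-b1 against untreated cells, 19 rose and 13 fell, 45.7% beside the 37.9% of all genes, with the smallest p-values for Stat3 (1.14 ± 0.12), Pdia3 (0.60 ± 0.07), Irgm2 (0.81 ± 0.10) and Nmi (0.73 ± 0.10).

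Some cell type markers differed between these groups, where 30.7% of all NM18 genes were called with TGF-b1 and 19.6% with FoxQ1 siRNA. In NM18, 2 of 10 leukocyte markers rose with TGF-b1, Csf1r by 0.36 ± 0.10 and Cd3e by 0.20 ± 0.06, beside 13.2% of all genes. With FoxQ1 siRNA 2 of 10 rose, Cd68 by 0.50 ± 0.11 and Ptprc by 0.35 ± 0.07, beside 11.3% of all genes. Levels also went the other way. Ptprc stood at 5.97, 5.92 and 5.88 with ns-siRNA and at 5.67, 5.78 and 5.86 with TGF-b1. Cd3e stood at 6.85, 6.75 and 6.91 with TGF-b1 and at 6.75, 6.71 and 6.72 with FoxQ1 siRNA and TGF-b1. The mean over the leukocyte markers ran from 6.24 to 6.32 over the ns-siRNA arrays, from 6.30 to 6.36 with TGF-b1 and from 6.33 to 6.38 with FoxQ1 siRNA. The mean over the 8 epithelial markers ran from 9.84 to 9.92, from 9.38 to 9.44 and from 9.57 to 9.79 in the same groups. The epithelial marker Cdh1 fell by 1.04 ± 0.09 (adjusted p = 1.04e-05) with TGF-b1 and rose by 1.05 ± 0.09 (adjusted p = 1.3e-05) with FoxQ1 siRNA. Krt19, another, fell by 3.11 ± 0.24 (adjusted p = 5.44e-06) with TGF-b1. Not all epithelial markers were lower with TGF-b1 or higher with FoxQ1 siRNA. Krt18 stood at 14.47, 14.36 and 14.35 with ns-siRNA and at 14.57, 14.27 and 14.49 with TGF-b1, which overlapped. Esrp1, of low brightness, stood at 5.66, 5.49 and 5.66 with ns-siRNA and at 5.93, 5.78 and 5.67 with TGF-b1. With FoxQ1 siRNA and TGF-b1 it stood at 5.63, 5.70 and 5.66. Cldn7, also of low brightness, stood at 5.81, 5.78 and 5.74 with ns-siRNA and at 5.94, 5.95 and 5.80 with TGF-b1. With FoxQ1 siRNA and TGF-b1 its levels were 5.71, 5.80 and 5.81. Of the 7 fibroblast markers 1 rose with TGF-b1, Col1a1, a collagen chain, by 0.91 ± 0.12, and 0 passed with FoxQ1 siRNA. In newly made NMuMG RNA at 2 h, 1 of 7 fibroblast markers, Col1a1, rose by 0.79 ± 0.16 (adjusted p = 0.00663). Of the 8 epithelial markers 1, Krt19, fell by 1.09 ± 0.17 (adjusted p = 0.000677), and 0 of 11 leukocyte markers passed, beside 6.13% of all genes. The part of these shifts in the changes of the interferon genes was not tested.

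With FoxQ1 siRNA and TGF-b1 together, the differences from untreated cells stand here beside those with TGF-b1 alone, which share the untreated arrays. For B2m, Irgm1 and Ifit2 the difference from untreated cells was 0.68 ± 0.10, 0.86 ± 0.16 and -0.82 ± 0.06 with both treatments and 0.88 ± 0.10, 1.07 ± 0.16 and -0.64 ± 0.06 with TGF-b1 alone. For Ifngr2 it was -0.08 ± 0.07 against -0.43 ± 0.07. For Igtp, Eif2ak2, Ifi35 and Irf9 it was 0.47 ± 0.10, 0.43 ± 0.10, 0.38 ± 0.08 and 0.36 ± 0.07 with both, against -0.16 ± 0.10, -0.04 ± 0.10, -0.01 ± 0.08 and 0.02 ± 0.07 with TGF-b1 alone. Without a group of FoxQ1 siRNA alone, whether these last depend on TGF-b1 was not tested.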

How the data were processed

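Log2 expression values per probe set were used as the authors deposited them, 1 table per cell line; the log2 scale was read from the values, and the submitters' processing notes name affy 1.18.2. The tables were normalized separately and are never mixed. Probe sets with 1 gene symbol were kept (34945 of 45101 for NMuMG, 20380 of 22690 for NM18), the brightest standing for a gene. limma 3.58.1 in R 4.3.3 (lmFit, eBayes) was fitted over all groups of a table, with Benjamini-Hochberg adjustment over all its genes and a threshold of 0.05. It was tested on simulated data. There, changes of 0.5 were called in 31.3% of genes for TGF-b1 at 2 h in newly made RNA. For TGF-b1 at 40 h this was 82.1% and for FoxQ1 siRNA 71.6%. For changes of 1 the shares were 85.1%, 92.5% and 98.5%. The simulation changed fewer genes than were called in the data and drew each array independently. These shares are therefore only a rough guide to what the real fits could call. The arrays' number, 3 a group, limits the precision.

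The members and lists were chosen with earlier results of these data known. Values per array are given for genes called at least once and for the receptors, others by counts. Same-numbered NM18 arrays deviated together in every pair of groups (correlations of 0.16 to 0.61), so the numbers pair them. The main fit left this pairing out, and the blocked counts stand beside its counts. In NMuMG this held within newly made (0.34 to 0.73) and within total RNA (0.12 to 0.41). Between the kinds of RNA the correlations ran from -0.18 to 0.32. Within the same treatment they were 0.02 to 0.31 in controls and 0.01 to 0.21 with TGF-b1, so pairing there is not settled. Alternatives tried were quantile normalization, median centring, genes above the median level, the mean of all probe sets, only the groups compared, a replicate block and leaving out each array. A block within each kind of RNA was chosen after seeing the data.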

Additional observations from a re-analysis of the deposited data

How the results depend on the processing

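Under the alternatives that tested each gene (some were not among the genes above the median level), Oasl2 kept its call with TGF-b1 in newly made and total RNA, as did 9 of 11 genes with TGF-b1 for 40 h, 7 of 8 with FoxQ1 siRNA and 11 of 19 with both against untreated cells. Between newly made and total RNA, 11 of 20 calls in controls and 14 of 21 with TGF-b1 were kept. How many of the calls over all genes were kept was not counted. For TGF-b1 at 2 h in newly made RNA, 4 genes were called. With the replicate block there were 7, with a separate block for each kind of RNA 9, and in a fit of only the groups compared 2. Over all genes 1116 were called in the main fit, and 1602, 2320 and 680 in these settings. Leaving out 1 array gave 1 to 6 genes of the list. It gave 1 without control replicate 2 or TGF-b1 replicate 3 (758 and 769 of all genes). It gave 2 without control replicate 3 or TGF-b1 replicate 1 of newly made RNA (944 and 962 of all genes). In total RNA the 1 call became 2 with quantile normalization, when all probe sets were averaged and with only the groups compared, 3 with either block, and 1 to 2 with 1 array left out, the 2 without control replicate 1 of newly made RNA. Over all genes 452 were called there in the main fit. The first 3 settings called 491, 478 and 586, and the blocks 701 and 1025. The difference of these effects had 0 calls with any array left out. Newly made against total control RNA gave 13 calls among genes above the median level, where fewer genes were tested, and 16 to 20 with 1 array left out, and with TGF-b1 17 to 22. In NM18, TGF-b1 gave 9 to 12 calls with 1 array left out, FoxQ1 siRNA 7 to 9, and 15 with the replicate block, and both together 15 to 18. Without ns-siRNA replicate 1 the same comparisons gave 11, 9 and 15 calls, beside 3231, 2443 and 4101 over all genes. The mean of all probe sets turned the sign of newly made minus total RNA for Ddx58 (0.062), Ifnar1 (0.58) and Ifnar2 (0.34) in controls and for Eif2ak2 (-0.30), Ifnar1 (0.82) and Ifnar2 (0.44) with TGF-b1. Why calls or signs differed between these settings was not tested.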
